A study of Rattus norvegicus with 8 samples.

Results

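The baseline transcriptome of fetal rat islets is described here from the 4 sham-operated litters of a series of 8 arrays, the other 4 being litters with intrauterine growth restriction, which were not analysed here. The members were chosen by their label alone, as the arrays of control islets. Each sham array holds RNA of a Sprague-Dawley litter whose dam had sham surgery on embryonic day 18 and whose fetal islets were taken on embryonic day 19. Islets from a whole litter were pooled, so 1 array stands for 1 litter of 1 dam, and the spread between litters cannot be told apart from that between isolations or arrays. The labels state no sort or gate after isolation and no transgene. Values are array signals on the log2 scale, where a difference of 1 is a 2-fold difference. Litters are called sham 1 to sham 4 after their replicate numbers, which give no order.

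Islets are clusters of hormone cells: beta cells secrete insulin, alpha cells glucagon, delta cells somatostatin, PP cells pancreatic polypeptide and epsilon cells ghrelin. In the fetus these cells bud from the same epithelium as the acinar cells, which make digestive enzymes, and the ducts, within a mesenchyme rich in vessels. Fetal blood carries many erythroid cells, and albumin, alpha-fetoprotein and most clotting factors are classically products of the liver.

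The promoters below belong to genes that carry the patterns described further on. Ins1 and Ins2, the 2 rat insulin genes, were among the brightest genes. Scg2 was far higher in sham 4, and Gp2 was far lower there. Fga and Fgb differed between all 4 litters, highest in sham 1 and lowest in sham 4. Each line is the stretch of 250 bases before the RefSeq start of the gene in the rat assembly GRCr8, 5′ to 3′ on the strand of the gene. Capitals mark 4 motifs: the core promoter element TATAAA, then GTTAAT as part of the HNF1 motif, then TGACGTCA as the cAMP response element, and lastly AGATAA as a GATA factor motif. Both strands were searched, so some capitals show the reverse complement of a motif. None of the marked matches overlap.
Ins1, chr1:261185869-261186118, plus strand: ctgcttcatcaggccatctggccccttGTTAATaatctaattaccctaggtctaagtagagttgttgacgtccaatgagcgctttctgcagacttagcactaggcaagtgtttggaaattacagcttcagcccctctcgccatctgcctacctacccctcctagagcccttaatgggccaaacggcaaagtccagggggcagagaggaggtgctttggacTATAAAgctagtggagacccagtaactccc
Ins2, chr1:207273806-207274055, minus strand: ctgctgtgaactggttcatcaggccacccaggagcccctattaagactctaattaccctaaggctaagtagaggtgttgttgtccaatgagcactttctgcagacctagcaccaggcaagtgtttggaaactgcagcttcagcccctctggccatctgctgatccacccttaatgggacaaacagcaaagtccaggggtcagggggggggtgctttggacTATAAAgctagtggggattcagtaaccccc
Scg2, chr9:88256867-88257116, minus strand: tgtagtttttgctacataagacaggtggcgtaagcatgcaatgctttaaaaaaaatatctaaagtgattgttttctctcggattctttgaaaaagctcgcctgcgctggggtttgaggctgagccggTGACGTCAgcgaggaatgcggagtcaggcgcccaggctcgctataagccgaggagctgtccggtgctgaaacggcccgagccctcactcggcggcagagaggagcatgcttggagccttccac
Fga, chr2:170671919-170672168, plus strand: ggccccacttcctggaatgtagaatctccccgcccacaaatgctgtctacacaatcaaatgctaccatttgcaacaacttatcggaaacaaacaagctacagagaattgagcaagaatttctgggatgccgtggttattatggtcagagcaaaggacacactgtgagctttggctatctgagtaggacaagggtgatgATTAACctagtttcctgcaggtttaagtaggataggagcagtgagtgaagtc
Fgb, chr2:170700876-170701125, minus strand: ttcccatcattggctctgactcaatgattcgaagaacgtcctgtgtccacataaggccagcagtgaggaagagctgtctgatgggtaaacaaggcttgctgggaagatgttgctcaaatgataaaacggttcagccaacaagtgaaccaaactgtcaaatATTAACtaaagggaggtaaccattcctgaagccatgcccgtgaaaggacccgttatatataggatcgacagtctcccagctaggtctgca
Gp2, chr1:183243955-183244204, minus strand: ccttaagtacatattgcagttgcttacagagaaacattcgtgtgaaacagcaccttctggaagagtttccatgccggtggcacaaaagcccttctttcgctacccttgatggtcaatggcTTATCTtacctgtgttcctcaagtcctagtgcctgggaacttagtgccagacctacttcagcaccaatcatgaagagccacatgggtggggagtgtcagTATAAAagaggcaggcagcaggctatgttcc

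Of the 14506 genes measured, 11968 had a promoter in the RefSeq table, and TATAAA occurred in 11.3% of those stretches. It occurred in 14 of 27 acinar enzyme promoters (51.9%) and in 4 of 11 hormone promoters (36.4%). Other lists with a higher share included plasma proteins (8 of 29, 27.6%) and adrenal steroid synthesis (3 of 8, 37.5%), a list made after the values were seen. The share was lower for granule genes (1 of 19, 5.26%) and for coagulation and complement genes (1 of 23, 4.35%). AGATAA occurred in 8.60% of all stretches, in 10 of the 27 acinar enzyme promoters (37.0%) and in 6 of 20 erythroid promoters (30%). GTTAAT occurred in 5.63% of all stretches, in 7 of 29 plasma protein promoters (24.1%) and in 7 of 23 promoters of coagulation and complement genes (30.4%). The palindrome TGACGTCA occurred in 2.28% of all stretches and in 3 of 19 promoters of granule genes (15.8%). Neither it nor AGATAA occurred in a hormone promoter (0 of 11 each), whereas GTTAAT occurred in 2 of 11 (18.2%). Other lists and an NR5A1 motif were also counted and are not all given here. These are matches of letters, not binding sites, and the gene groups were chosen with earlier results of these data known.

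The 30 brightest genes of the sham islets were headed by Actb, the cytoplasmic beta-actin, at 14.02 ± 0.02 (SD, n = 4 litters). Brightness depends on the probes as well as the transcript, so this order is one of array signal, not of transcript abundance. The insulin gene Ins2 was in rank 3 at 13.90 ± 0.22 and the glucagon gene Gcg in rank 29 at 13.57 ± 0.27, and Ins1 followed in rank 36 at 13.52 ± 0.35. The same 30 held 7 genes of ribosomal proteins and the housekeeping genes Gapdh and Eef1a1. They also held genes of other cells: the acinar proteases Ctrb1 (13.74 ± 0.45) and Cpa1 (13.70 ± 0.45), the beta-globin genes Hbb (13.88 ± 0.09) and Hbb-b1 (13.77 ± 0.06), the smooth muscle actin Acta2 (13.78 ± 0.08), and the mesenchymal genes Vim (13.68 ± 0.02) and Sparc (13.66 ± 0.04). The islet label was therefore matched by bright hormone genes, in libraries where acinar, erythroid and mesenchymal genes were among the brightest as well. Globins, insulins and other close paralogs can share probes, so single members of such families are uncertain.

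The brightest genes differed little between litters. Over the 30, the range from the lowest to the highest litter had a median of 0.18, from 0.05 (Vim) to 1.00 (Cpa1), and 0 exceeded 1, against a median range of 0.52 and a median SD of 0.23 over all genes. Spread was widest at middle signal: with genes split into 4 equal groups by mean signal, 26.0% of the third group had a range over 1, against 7.69% of the dimmest group and 15.1% of the brightest. Among genes brighter than the median, the ribosome assembly factor Ltv1 had the smallest range, with 9.63 to 9.65, followed by Agps, an enzyme of ether lipid synthesis, and Trim28, a corepressor, which lay between 11.98 and 12.01. These small ranges hold on the deposited scale: under quantile normalization that of Ltv1 was 0.41, that of Agps 0.38 and that of Trim28 0.23.

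**Figure D1:**
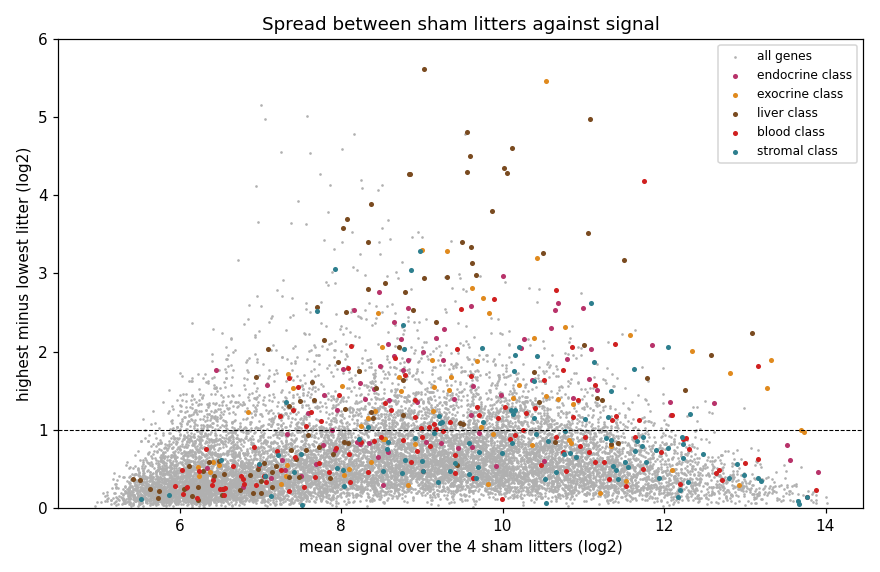
Range between sham litters (highest minus lowest, log2) against mean signal over the 4 litters (log2), with 1 point per gene and colours for 5 cell classes. The dashed line marks a range of 1, which 2476 of 14506 genes exceeded, and the widest ranges belong to liver, exocrine and erythroid genes and to genes outside the classes.

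Between the 4 litters, 2476 of 14506 genes (17.1%) had a range over 1, 283 (1.95%) over 2 and 27 (0.186%) over 4. Most of this spread involved sham 4. Without it 742 genes ranged over 1, without sham 1 1382, without sham 2 2074 and without sham 3 2357. Correlations across genes, which are not independent replicates, were 0.977 to 0.987 among sham 1 to 3 and 0.947 to 0.960 between these and sham 4. Sham 1 also stood apart in its scale: its interquartile range of gene signal was the widest, and 1240 olfactory and vomeronasal receptor genes, used as a reference of low signal, had a median of 5.66 there against 6.13 to 6.28 elsewhere. In all, 6179 genes (42.6%) were highest in sham 1 and 5556 (38.3%) lowest in sham 4, and these shares are the background for every count of that kind below.

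**Figure D2:**
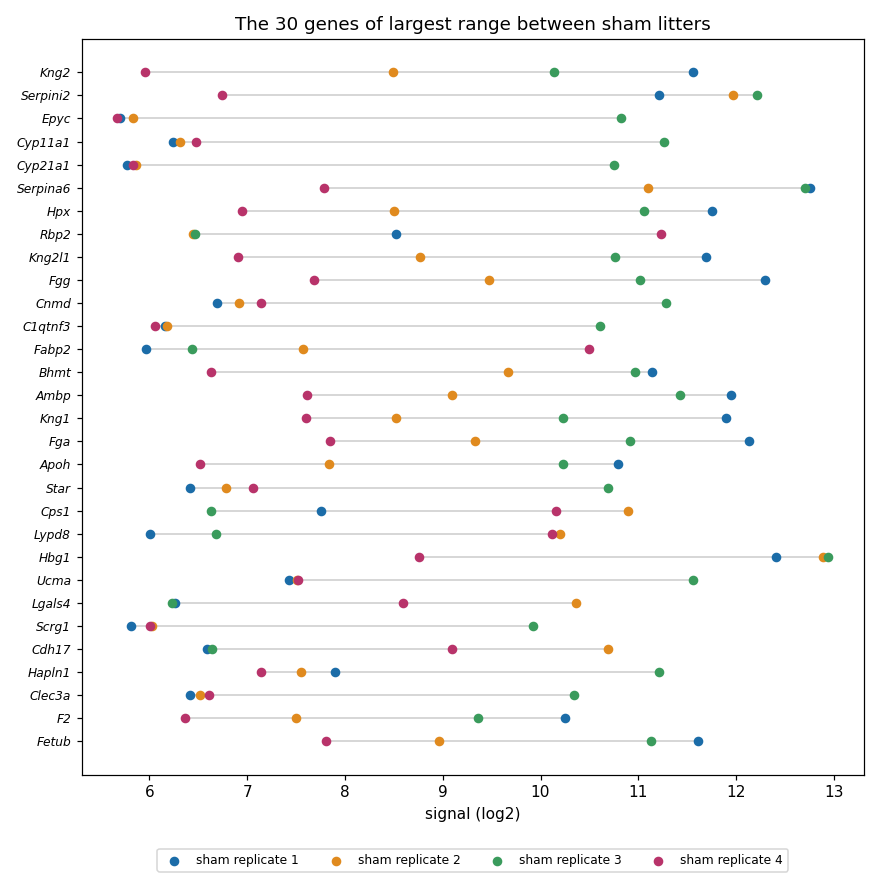
Signal (log2) in each sham litter of the 30 genes with the widest range, with 1 row per gene and 1 colour per litter. Liver genes such as Kng2 spread over all 4 litters, whereas Epyc and Cyp11a1 are high in sham 3 alone and Serpini2 and Hbg1 low in sham 4 alone.

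A gene is said to stand apart in a litter when it is over 1 above or below the nearest of the other 3. By that measure 268 genes (1.85%) stood above and 346 (2.39%) below in sham 4. In sham 1, 82 (0.565%) stood above and 61 (0.421%) below. Sham 2 had 43 above (0.296%) and 7 below (0.0483%), and sham 3 had 32 above (0.221%) and 1 below (0.00689%), the urea cycle gene Cps1. Counts for sham 1 changed with the scaling: centring the arrays on a common median gave 40 above and 208 below, and quantile normalization gave 51 and 40, with 407 above and 241 below in sham 4. With a litter left out fewer others have to be cleared, so that the count above in sham 3 was 86 without sham 1, that above in sham 1 was 170 without sham 3, and that below in sham 2 was 72 without sham 4.

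**Figure D3:**
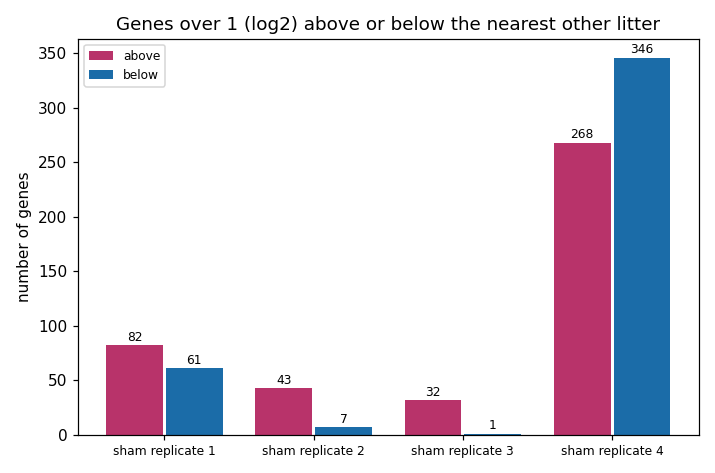
Number of genes over 1 (log2) above (red) or below (blue) the nearest other litter, for each sham litter. Sham 4 has 268 and 346, and the other litters have 1 to 82.

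Endocrine genes were higher in sham 4 than in every other sham litter, almost throughout. Of 75 endocrine genes measured, 67 were highest in sham 4, where 28.4% of all genes were highest, and 40 (53.3%) stood over 1 above the nearest litter, against 1.85% of all genes. The median shift, the difference between a litter and the mean of the other 3, was 1.29 in sham 4 against −0.03 over all genes, and −0.34, −0.47 and −0.41 in sham 1 to 3. Those of sham 1 to 3 rested on sham 4: without it they were 0.07, −0.07 and −0.03. A range over 1 was seen in 48 of the 75 (17.1% of all genes), and in 2 of 75 without sham 4 (5.12% of all genes). In the same litter the median shift was −0.94 for acinar enzymes, −0.59 for erythroid genes and −0.88 for plasma proteins, and the part of these in the endocrine values was not tested. In pooled tissue, more cells of a type and more RNA per cell cannot be told apart.

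**Figure D4:**
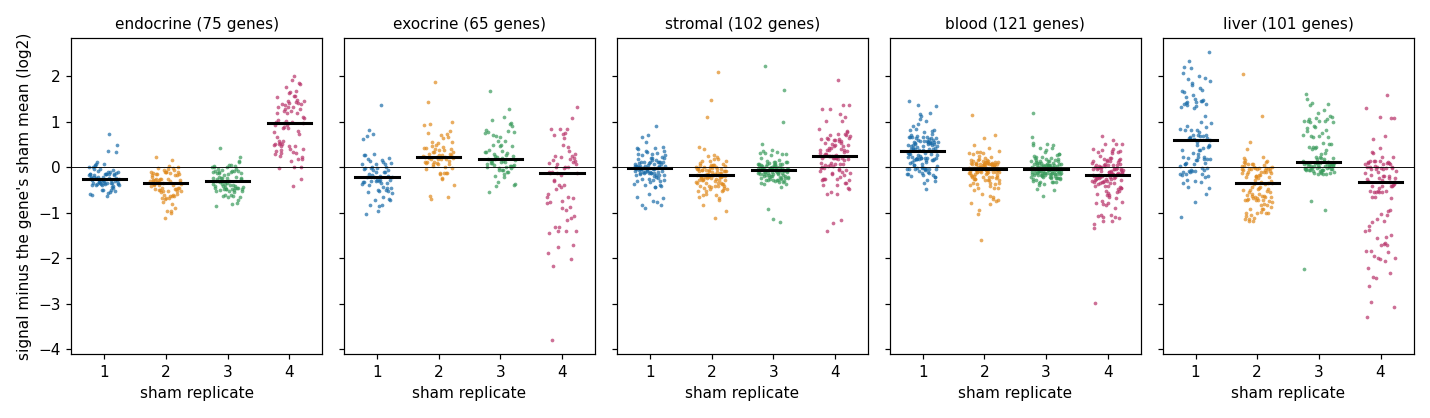
Signal of each member minus its own mean over the 4 sham litters (log2), for 5 cell classes. Each point is a gene, the black bars are medians over the members, and the replicate numbers have no order; endocrine genes lie high in sham 4, while liver genes lie high in sham 1 and many lie low in sham 4.

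The hormone genes differed in how far they moved. Ins2 read 13.79, 13.78, 13.80 and 14.24 in sham 1 to 4, and its near-identical relative Ins1 read 13.33, 13.21, 13.52 and 14.01. Gcg read 13.33, 13.55, 13.44 and 13.94. These bright genes were highest in sham 4, by 0.49 for Ins1, 0.44 for Ins2 and 0.39 for Gcg over the next litter. By contrast Sst, the somatostatin gene, read 10.49, 10.42, 10.27 and 12.83, a gap of 2.35. Iapp, which encodes the amyloid peptide secreted with insulin, read 11.56, 11.20, 11.34 and 13.28. Sham 4 lay far above for both, and the other 3 litters lay close together. Pancreatic polypeptide (Ppy) read 8.08, 8.47, 8.35 and 9.46, and ghrelin (Ghrl) 7.04, 7.05, 7.24 and 7.98. The gastrin gene Gast, active in the fetal pancreas, read 8.36, 8.33, 8.38 and 10.23, and the peptide hormone genes Pyy and Npy were higher in sham 4 by 1.22 and 1.23 than in the next litter. Npy and the 2 hormones that follow were picked after their values were seen. Cholecystokinin (Cck) was the only one of 12 hormone genes not highest in sham 4, at 6.97, 7.36, 7.09 and 7.12, and adrenomedullin (Adm) spanned only 8.37 to 8.66.

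Granule proteins and the machinery of secretion showed the same litter on top. Of 26 measured, 23 were highest in sham 4 and 16 stood over 1 above the nearest litter. Scg2, the granin whose promoter is shown above, read 9.76, 9.05, 9.20 and 12.02. The granule membrane protein Ptprn2 read 8.98, 8.94, 9.01 and 11.52. Pcsk2, the convertase that processes proglucagon, read 10.29, 9.94, 9.96 and 12.24. For each of these genes the gap to sham 4 was wider than the whole range of the other 3 litters. Chromogranin A (Chga) was higher in sham 4 by 1.55 than in the next litter, and the synaptic fusion protein gene Snap25 by 1.96. Slc18a2, a vesicular monoamine transporter picked after its values were seen, was lowest in sham 4, below the 7.09 to 7.61 of the others.

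Genes that couple glucose to secretion did likewise, with 18 of 20 highest in sham 4 and 13 over 1 above the nearest litter. Abcc8 and Kcnj11 encode the subunits of the ATP-sensitive potassium channel of beta cells. Abcc8 read 8.77, 8.67, 8.72 and 10.96, and Kcnj11 read 7.84, 7.87, 7.82 and 9.42. The glucose transporter gene Slc2a2 read 10.71, 9.53, 10.30 and 12.06, and it also separated sham 1 from sham 2 by over 1. The incretin receptor gene Glp1r read 8.31, 7.56, 7.68 and 10.33. Pc, the pyruvate carboxylase gene, went the other way, highest in sham 1 (9.80) and lowest in sham 4 (9.03).

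Islet transcription factors shifted less. In sham 4, 15 of 17 were highest but 6 stood over 1 above the nearest litter, with a median shift of 0.67. Neurod1 read 9.98, 9.56, 9.79 and 11.72, and Pax6 read 9.75, 9.67, 9.52 and 10.96. Neurog3, the factor of endocrine progenitors, read 9.80, 9.77, 9.78 and 10.31, a much smaller gap of 0.50. Hhex, a delta cell factor that is also made in liver, was highest in sham 1 at 9.66, with 8.31, 8.85 and 8.94 in the others; it was picked after its values were seen. Beyond the lists, the genes whose 4-litter profile lay nearest that of the endocrine class were Ttc27 and Nnat, at Euclidean distances of 0.05 and 0.06 among 2210 genes with a range over 1. Neuronatin (Nnat), an islet and brain protein, read 11.78, 11.56, 11.71 and 12.91. Other genes far above in sham 4 were Disp2, Pclo, Insrr, Slc29a4 and Aoc3, by 2.47 to 2.72.

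Acinar genes were low in sham 4 and highest, for most, in sham 3. Of 34 acinar enzyme genes, 21 were lowest in sham 4 (38.3% of all genes), 12 stood over 1 below the nearest litter there (2.39% of all genes), and 19 were highest in sham 3 (12.3% of all genes). Serpini2, a serine protease inhibitor of acinar cells, read 11.22, 11.97, 12.21 and 6.74 and had the second largest range of all genes, 44.2-fold. Reg1a, a secreted acinar protein, read 10.61, 11.37, 11.46 and 8.26, and the elastase gene Cela1 read 9.68, 10.55, 10.73 and 8.05. Gp2, a zymogen granule membrane protein named for its promoter after its values were seen, read 9.20, 8.79, 9.15 and 6.71. In all 4 genes sham 4 lay below the other litters by 1.63 or more. The brightest members moved less: Cpa1 read 13.76, 13.95, 14.03 and 13.04, and Ctrb1 read 13.86, 13.97, 14.05 and 13.08. Pnlip, the pancreatic lipase gene, was instead split between sham 2 and 3 (9.16 and 9.45) and sham 1 and 4 (8.01 and 7.40).

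The acinar transcription factors followed, with 6 of 7 highest in sham 3 and 5 lowest in sham 4. Rbpjl, a subunit of the acinar factor complex, read 9.48, 10.48, 10.92 and 8.43, and Ptf1a read 7.03, 7.83, 8.15 and 6.62, so sham 1 was the second lowest in both. A pair of carboxypeptidases in the acinar list did not follow and were picked after their values were seen. Cpa3, which is known mainly from mast cells, read 12.13, 10.51, 10.62 and 9.81, and Cpb1 read 10.16, 8.64, 9.50 and 9.05, both highest in sham 1.

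Duct genes parted from acinar genes in sham 4, with a median shift of 0.25 against −0.94 for acinar enzymes. In sham 1 to 3 the shifts of both lists had the same signs. They were −0.59, 0.19 and 0.05 for duct genes and −0.06, 0.36 and 0.45 for acinar enzymes. Of 24 duct and progenitor genes, 15 were lowest in sham 1 (29.2% of all genes), 12 were highest in sham 4 and 11 in sham 2. The keratin gene Krt19 read 10.31 in sham 1 against 10.93 to 11.14 in the others, the chloride channel gene Cftr read 7.29, 8.22, 7.68 and 8.85, and the tight junction gene Cldn7 8.65, 10.42, 9.13 and 10.52. Krt7 spanned only 8.64 to 8.93. Because acinar and duct genes ran in different directions in sham 4, the median shift of the whole exocrine class there was small, at −0.18, although 13 of its 65 members stood over 1 below the nearest litter. A range over 1 was seen in 38 of the 65 (58.5%), against 17.1% of all genes. Without sham 4 it was seen in 17 (26.2%), against 5.12% of all genes.

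**Figure D5:**
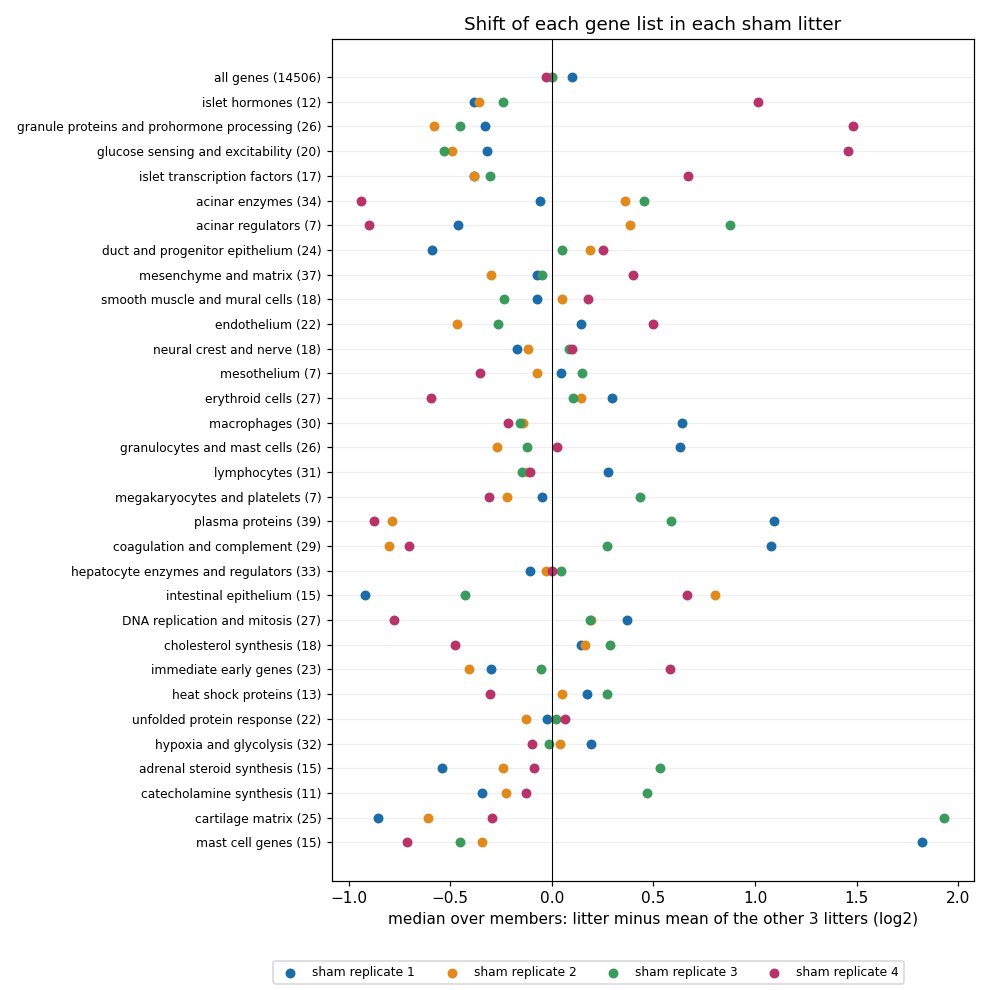
Median over the members of each list (number measured in brackets) of the signal in a litter minus the mean of the other 3 litters (log2), with 1 point per sham litter. Endocrine lists lie at 0.67 to 1.48 in sham 4, plasma proteins and coagulation factors lie at 1.10 and 1.08 in sham 1, and cartilage matrix genes lie at 1.93 in sham 3.

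Of 102 stromal genes, 30 (29.4%) had a range over 1, against 17.1% of all genes. Without sham 4, 7 (6.86%) had one, against 5.12% of all genes. Of 37 mesenchymal genes, 25 were highest in sham 4. The fibrillar collagen gene Col1a1 read 13.16 in sham 4 against 11.96 to 12.19 in the others, and the matrix protein gene Mfap5 read 8.12, 7.74, 8.83 and 10.79. Decorin (Dcn) read 13.10, 13.13, 13.13 and 13.44, a gap of only 0.31. Other mesenchymal genes were low in the same litter. Tgfbi, a matrix protein, read 12.72, 12.46, 12.37 and 10.66, and the mesenchymal factor gene Tcf21 read 10.87, 10.30, 10.53 and 8.92. Outside the lists, and picked after their values were seen, 2 homeobox genes known from the mesenchyme that forms the spleen showed the same low value: Nkx2-5 read 11.25, 11.07, 10.76 and 8.61, and Tlx1 read 12.24, 12.11, 11.57 and 10.01. Sham 4 was thus over 1 above the other litters for some stromal genes and over 1 below for others.

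Mesothelial genes, which line abdominal organs, were also divided. Wt1 read 11.11, 10.40, 10.28 and 9.06, lowest in sham 4, as were 6 of the 7 measured. Mesothelin (Msln) read 10.74, 10.54, 10.86 and 12.41, highest there. Vessel genes were highest in sham 4 in 17 of 22 and lowest in sham 2 in 20 of 22 (20.6% of all genes). The endothelial junction gene Cdh5 read 10.99, 10.62, 10.75 and 11.75, and Pecam1 read 11.33, 10.83, 11.05 and 11.99. The endothelial shift in sham 1 was 0.15, and it turned to −0.07 under quantile normalization and −0.16 under centring. Prox1, a factor of lymphatic vessels and also of endocrine and liver cells, read 8.59, 7.80, 8.54 and 10.14.

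Among smooth muscle genes, 3 contractile genes were high in sham 2. These were Cnn1 (8.21, 11.06, 7.77 and 8.87), Actg2 (10.51, 12.58, 9.96 and 11.34) and Myh11 (7.89, 9.89, 7.86 and 9.48), each next highest in sham 4. Acta2 did not share this, with 13.70 to 13.85, nor did the pericyte receptor gene Pdgfrb, which was highest in sham 1 at 12.66. The list as a whole shared it only in part: 7 of 18 were highest in sham 2 (16.8% of all genes) and 8 in sham 4 (28.4%). In sham 2, 2 of the 18 (11.1%), Cnn1 and Actg2, stood over 1 above the nearest litter, against 0.296% of all genes. The median shift of the list was 0.05 in sham 2 (0.02 under quantile normalization and 0.18 under centring) and 0.18 in sham 4 (0.33 and 0.30). Of 18 neural crest and nerve genes, 5 (27.8%) had a range over 1, against 17.1% of all genes. Without sham 3, 2 (11.1%) had one, against 16.2% of all genes. In sham 4, 9 were highest (28.4% of all genes), and in sham 3, 7 were (12.3%). In sham 3, 3 stood over 1 above the nearest litter (0.221% of all genes). Some members are also on the catecholamine list below.

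Sham 2 and sham 4 were also the high litters for most genes of intestinal epithelium. Of 15 measured, 14 had a range over 1 (17.1% of all genes), 9 were highest in sham 2 (16.8%) and 4 in sham 4 (28.4%). Cdh17, an intestinal cadherin, read 6.59, 10.69, 6.64 and 9.10, the lectin gene Lgals4 read 6.26, 10.36, 6.23 and 8.60, and the homeobox gene Cdx2 read 7.28, 9.32, 7.18 and 7.94. Sham 1 and sham 3 were the low litters in all of them, and in sham 3 the 3 genes lay below the 95th percentile of the receptor reference, 7.43. Cps1, which is made in liver and intestine, read 7.75, 10.90, 6.62 and 10.16. Goblet cell genes Agr2 (6.97, 10.50, 7.09 and 7.98) and Clca1 (5.94, 9.59, 6.31 and 7.70) and the retinal dehydrogenase gene Aldh1a1 (10.16 in sham 2, and 6.52 in sham 1) were highest in sham 2. The fatty acid and retinol carriers of enterocytes were instead highest in sham 4: Fabp2 read 5.96, 7.57, 6.43 and 10.49, and Rbp2 read 8.52, 6.45, 6.46 and 11.23. Which tissue these signals came from was not tested.

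Liver genes were high in sham 1 and sham 3 and low in sham 2 and sham 4. Of 101 measured, 68 were highest in sham 1 (42.6% of all genes), 54 were lowest in sham 4 (38.3%), and 17 stood over 1 below the nearest litter in sham 4 (2.39%). The median shifts in sham 1 to 4 were 0.78, −0.48, 0.14 and −0.44, and that in sham 1 was 0.56 under quantile normalization and 0.48 under centring. Unlike the endocrine pattern, this one did not rest on a single litter. A range over 1 was seen in 58 of 101 (17.1% of all genes). It was seen in 51 without sham 4 (5.12% of all genes) and in 46 without sham 1 (9.53%). In pairs of litters, 85 of the 101 were higher in sham 3 than in sham 2, where 7360 of 14506 genes were.

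Plasma protein genes ranged widely, with a median range of 2.03 against 0.52 over all genes. Albumin (Alb) read 13.92, 12.95, 13.78 and 11.69, and alpha-fetoprotein (Afp) 13.34, 12.26, 13.32 and 11.39. Kng2, a kininogen, had the largest range of all genes, 48.9-fold, with 11.56, 8.49, 10.13 and 5.95. Serpina6, the corticosteroid-binding globulin, read 12.76, 11.10, 12.70 and 7.78, and haemopexin (Hpx) read 11.75, 8.50, 11.06 and 6.94. In sham 4, Kng2 and Hpx lay below the 95th percentile of the receptor reference, 7.54. A few plasma protein genes went another way. The apolipoprotein genes Apob (8.87, 8.25, 7.95 and 10.48) and Apoa4 (7.21, 7.77, 7.81 and 9.07), also made by intestine and picked after their values were seen, were highest in sham 4, as was Gc, the vitamin D carrier, at 12.17, 10.80, 11.73 and 12.46.

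All 29 coagulation and complement genes measured were highest in sham 1, where 42.6% of all genes were, 21 were lowest in sham 4 and 8 in sham 2. The fibrinogen chains, whose Fga and Fgb promoters are shown above, read 12.14, 9.33, 10.92 and 7.85 for Fga, 11.20, 8.69, 10.33 and 7.79 for Fgb, and 12.29, 9.47, 11.02 and 7.69 for Fgg. The 3 genes, which make 1 protein, put the litters in the same order. Prothrombin (F2) read 10.25, 7.50, 9.36 and 6.36. Hepatocyte enzymes had median shifts between −0.11 and 0.04. That in sham 1, −0.11, turned to 0.13 under quantile normalization and was −0.41 under centring. Only 21, 9, 11 and 8 of the 33 lay above the 95th percentile of the receptor reference in sham 1 to 4. These medians thus describe mostly genes that were dim in sham 2 to 4. A range over 1 was seen in 9 of the 33 (27.3%), against 17.1% of all genes. Of those that did range, the methyltransferase gene Bhmt read 11.14, 9.67, 10.97 and 6.63 and glycogen synthase (Gys2) 10.07, 7.23, 8.60 and 6.38, in the order of the plasma proteins. Others did not keep that order. Cps1, also on this list, was highest in sham 2 at 10.90 and lowest in sham 3. In sham 4, 2 of the 33 stood over 1 above the nearest litter and 2 over 1 below. Slc10a1, the bile acid transporter of mature hepatocytes, stayed at 6.80 to 7.14, below the 95th percentile of the receptor reference in sham 2 to 4. Outside the lists, Gldc, the glycine cleavage enzyme, had the profile nearest to the liver class, at a distance of 0.14 among the 2210.

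Blood genes divided by lineage. Of 121 measured, 82 were highest in sham 1, where 42.6% of all genes were, and 60 were lowest in sham 4, against 38.3%. The class shift in sham 1 was 0.49, and it was 0.18 when arrays were centred on a common median. A range over 1 was seen in 46 of the 121, in 25 without sham 1 and in 21 without sham 4. Erythroid genes were lowest in sham 4 in 23 of 27, and 8 stood over 1 below the nearest litter. Hbg1, a fetal-type globin, read 12.41, 12.88, 12.94 and 8.76, the embryonic globin Hbe1 13.33, 13.85, 13.42 and 12.03, and the erythroid factor Klf1 11.33, 11.16, 10.94 and 9.57. Other erythroid genes did not show a low value of that size. Hbb read 13.85, 14.01, 13.89 and 13.78, also lowest in sham 4, but near the top of the scale, where differences have little room. Alas2, the first enzyme of erythroid haem synthesis, read 12.68, 12.93, 12.58 and 12.67.

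Immune genes were highest in sham 1 under the deposited scale. Among macrophage genes 24 of 30 were highest there, with a median shift of 0.64 (0.45 under quantile normalization and 0.34 under centring). The macrophage growth factor receptor gene Csf1r read 11.51, 10.92, 11.03 and 11.10, and complement C1qa read 10.81 in sham 1, 0.81 above the next litter. Of granulocyte and mast cell genes 19 of 26 were highest in sham 1, and 2 stood apart below in sham 2. These were the neutrophil collagenase gene Mmp8, at 10.96, 8.29, 9.94 and 10.41, and the calprotectin subunit gene S100a9, at 11.38, 9.99, 11.08 and 11.31. Myeloperoxidase (Mpo) did not vary, at 9.91 to 10.03. Lymphocyte genes had a shift of 0.28 in sham 1, which turned to −0.03 under centring. The lymphoid receptor gene Il7r read 9.47, 7.39, 7.97 and 7.67 and the recombinase gene Rag1 9.25, 7.49, 7.46 and 8.16, whereas Cd3e was at 5.93 to 6.41 in every litter, below the receptor 95th percentile of each. Platelet genes were highest in sham 3 in 6 of 7, and Pf4 read 10.14, 10.26, 10.28 and 9.12.

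Mast cell genes, most of them proteases, were high in sham 1. A list of these was made after the values were seen, and 13 of its 15 members were highest in sham 1 and 10 stood over 1 above the nearest litter, against 0.565% of all genes. Mcpt4 read 10.37, 7.16, 7.52 and 6.98, Mcpt3 10.19, 7.62, 6.40 and 7.15, and Mcpt10 10.29, 7.76, 7.83 and 7.04. The Mcpt genes are close paralogs that can share probes, so these are not separate observations. The tryptase gene Tpsb2 did not follow, at 6.86 to 7.16. Hdc, the histamine-forming enzyme of mast cells and basophils, read 12.12, 9.87, 11.34 and 9.34.

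Sham 3 differed from the others in a small, steep set of genes. Of the 32 genes that stood above in sham 3, 25 (78.1%) were on 3 lists made after the values were seen: 16 of 25 cartilage matrix genes, 7 of 15 genes of adrenal steroid synthesis and 2 of 11 of catecholamine synthesis. Cyp11a1, the cholesterol side-chain cleavage enzyme, read 6.24, 6.32, 11.26 and 6.48. The steroid hydroxylase genes Cyp21a1 (5.77, 5.86, 10.75 and 5.83) and Cyp11b1 (5.99, 6.07, 9.65 and 6.16) and the cholesterol carrier gene Star (6.42, 6.78, 10.69 and 7.06) had the same form. In the 3 other litters each of these lay at or below the 95th percentile of the receptor reference. Th and Dbh, which make catecholamines in adrenal chromaffin cells and sympathetic neurons, read 7.10, 7.10, 10.16 and 7.35, and 6.87, 7.19, 9.39 and 7.34. Among cartilage genes, the proteoglycan gene Epyc read 5.70, 5.83, 10.82 and 5.67, chondromodulin (Cnmd) 6.69, 6.91, 11.29 and 7.14, and Ucma 7.43, 7.51, 11.56 and 7.52. Col2a1, the main cartilage collagen, which was picked after its values were seen, was less steep, at 8.09, 8.30, 10.14 and 8.62. Skeletal muscle, kidney and stomach lists, made at the same time, had 0 genes with a range over 1, although all 8 skeletal muscle genes were highest in sham 3 (12.3% of all genes), with a median shift of 0.38 (0.35 under quantile normalization and 0.43 under centring). Most members of these 3 lists were dim in sham 2 to 4. There, 0 of 10 kidney, 2 of 8 skeletal muscle and 2 to 3 of 7 stomach genes lay above the receptor 95th percentile. In sham 1, 4 of 10 kidney, 5 of 8 skeletal muscle and 4 of 7 stomach genes lay above it. That percentile was lower in sham 1, at 6.47 against 7.43 to 7.54 in the others.

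Cell cycle genes were lowest in sham 4, the litter in which endocrine genes were highest. All 27 genes of DNA replication and mitosis measured were lowest in sham 4, where 38.3% of all genes were lowest, with a median shift of −0.78. Cdc20, an activator of the anaphase-promoting complex, read 12.40, 12.32, 12.27 and 10.94, and the mitotic kinase gene Cdk1 read 11.37, 11.28, 11.31 and 10.39. Top2a, the replication topoisomerase, moved least of these, with 11.88, 11.80, 11.78 and 11.68. Sterol synthesis genes were lowest in sham 4 in 17 of 18, with a shift of −0.48. Fdps, the farnesyl diphosphate synthase gene, read 12.47, 12.63, 12.60 and 11.45.

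Immediate early genes, which respond to stimuli within minutes, were highest in sham 4 in 18 of 23, with a shift of 0.58. Fos read 12.07, 11.89, 12.29 and 12.60, Egr1 12.94, 12.87, 13.25 and 13.60, and Zfp36 11.49, 11.29, 11.52 and 12.91. Heat shock genes ran the other way, with 10 of 13 lowest in sham 4: Hspb1 read 11.32, 11.32, 11.59 and 9.53. The chaperone gene Hspa5 of the unfolded protein response was at 13.45 to 13.67, and its list of 22 had shifts of −0.13 to 0.07, with 0.24 in sham 4 under quantile normalization and −0.32 in sham 1 under centring. Glycolysis and hypoxia genes had a range over 1 in 4 of 32 (12.5%), against 17.1% of all genes, and their shift of 0.19 in sham 1 was 0.03 under quantile normalization and −0.11 under centring.

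Genes below in sham 1 were of another kind. Among the 10 farthest below, most were olfactory receptor or Spetex genes, families of many related genes. Spetex2g read 5.84, 9.42, 9.37 and 9.40, and the receptor gene Or5p60b 6.14, 8.95, 8.52 and 9.18. The receptor reference as a whole was also lower in sham 1, but by far less, with a median of 5.66 against 6.13 to 6.28 elsewhere. In sham 2 to 4 both named genes lay above its 95th percentile.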

How the data were processed

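The deposited values are log2 expression values of 29214 probe sets, made by the authors with RMA, per the submitters' processing notes; version and filters: not given in the sources used here. Of these probe sets, 15310 had exactly 1 gene in the platform annotation, 323 had several and 13581 none, and 15279 of the 15310 matched a current rat gene identifier. For the 527 genes with several probe sets the one with the highest mean over the sham arrays was used, which left 14506 genes. No further normalization was applied.

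Only the 4 sham arrays entered. No contrast, p-value or correlation across litters was computed, since 4 litters of 1 group allow none; counts and medians over lists are descriptions, set beside the same over all genes. The 27 gene lists, the 5 classes and the members were chosen with earlier results of these data known, and 7 further lists were made after the values were seen. Genes were named by a rule: the 30 brightest, the 30 of widest range, for each litter the 10 farthest above and the 10 farthest below the nearest other litter, the defining, the 4 brightest and the 4 widest-ranging members of each list, the 10 of smallest range above median signal, and the 10 outside the lists nearest in profile to the endocrine and to the liver class. Exceptions are said to be picked after their values were seen. The counting was tested on simulated data with shifts planted in 1 litter. The noise was independent between genes and no SD exceeded the median SD of the genes. That checks the counting only, and not the counts seen in these litters.

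Arrays have no read depth, and their number limits the precision. Promoter sequences are from RefSeq (GRCr8). Python 3.11.15, numpy 2.4.6, pandas 2.3.3 and matplotlib 3.10.9 were used. The alternatives were quantile normalization, median centring, averaging the probe sets of a gene, the brightest probe set over all 8 arrays, leaving out the 30% dimmest genes, and leaving out each litter in turn.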

Additional observations from a re-analysis of the deposited data

Results flagged for a closer look

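Of the 140 genes named, 41 had 1 sham litter whose gap to the nearest of the others exceeded Dixon's 95% limit for 4 samples, as a share of the whole range, as did 14 of 39 lists and classes by their mean. Chance flags about 1 in 20 groups, and 1392 of all 14506 genes (9.60%) met the same limit. Many of the named genes were chosen for a wide range or for standing apart in a litter, and 7 lists after their values were seen, so these shares are partly fixed by the choice and were not set against chance. Values are log2 signals in the litter that lay apart.

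Sham 4 lay high for the endocrine class (mean 10.13) and for its lists of islet hormones (11.53), granule proteins (10.61), glucose sensing (9.30) and transcription factors (9.38). The genes were Ins2 (14.24), Sst (12.83), Gast (10.23), Pyy (13.59), Npy (13.05), Chga (11.56), Pcsk2 (12.24), Ptprn2 (11.52), Abcc8 (10.96), Kcnj11 (9.42), Pax6 (10.96) and Neurog3 (10.31). Outside those lists it lay high for Disp2 (10.69), Pclo (9.39), Insrr (9.23), Aoc3 (10.02), Nnat (12.91), Ttc27 (11.35), Dcn (13.44), Zfp36 (12.91) and Tpsb2 (7.16). The value of Tpsb2 was still below the receptor 95th percentile of sham 4, 7.54.

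The same litter lay low for the lists of erythroid cells (10.51), DNA replication and mitosis (10.46) and cholesterol synthesis (9.76). It lay low for Hbg1 (8.76), Pf4 (9.12), Gp2 (6.71), Tgfbi (10.66), Cdk1 (10.39), Cdc20 (10.94), Fdps (11.45) and Hspb1 (9.53).

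In sham 3 the lists of adrenal steroid synthesis (8.44), catecholamine synthesis (8.50) and cartilage matrix (9.39) lay high, with Cyp11a1 (11.26), Cyp11b1 (9.65), Cyp21a1 (10.75), Star (10.69), Th (10.16), Epyc (10.82), Cnmd (11.29) and Ucma (11.56).

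In sham 1 the lists of macrophages (9.99), lymphocytes (8.16) and mast cell genes (9.61) lay high, with C1qa (10.81) and Mcpt4 (10.37), while Spetex2g lay low (5.84). In sham 2 Aldh1a1 lay high (10.16).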

How the results depend on the processing

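No paired analysis was possible because the sham litters alone were described and no result comes from a test. Of 239 recomputed values of the main results, 213 kept their size and 26 moved. The limits were 1.5 times for counts and 1 SD of the class mean between litters for medians. That SD was 0.61 for the endocrine class and 0.59 for the liver class, larger than most of their shifts. A median shift could thus vanish and still count as kept, and the 6 changes of sign given next are all among the 213. The sign changed in 6, all of them median shifts of classes: endocrine (0.07) and stromal (0.06) in sham 1 and stromal in sham 3 without sham 4, blood in sham 2 (0.07) under centring, and blood in sham 2 (0.03) and sham 3 (0.08) without sham 1. The count of genes with a range over 1 was 2476 and lay between 1989 and 2559 under the scaling, probe set and dim gene alternatives, with 1731 of the same genes under quantile normalization and 1880 under centring, and between 742 and 2357 with 1 litter left out. The count above in sham 1, 82, was 51 under quantile normalization and 40 under centring, and that below, 61, was 40 and 208, and 34 without the dimmest genes. Without the dimmest genes 17 stood above in sham 2 and 21 in sham 3. Under centring 0 stood below in sham 3, and under quantile normalization 407 stood above in sham 4. With 1 litter left out the counts above and below were 99 to 170 and 79 to 107 for sham 1, 49 to 78 and 12 to 72 for sham 2, 33 to 86 and 6 to 22 for sham 3, and 304 to 360 and 369 to 483 for sham 4. The stromal shift in sham 1 was −0.04 and became −0.21 under quantile normalization and −0.34 under centring, and the blood shift there fell from 0.49 to 0.18 under centring. Relative to the deposited values, quantile normalization moved the median of all genes by −0.14 in sham 1 and centring by −0.23, with 0.10 in sham 2. Between 25 and 29 of the 30 brightest genes were shared under the alternatives run. Of the ranges of the 140 genes named, 72 moved by over 1 SD without sham 4, 27 under centring and 12 under quantile normalization. Dim genes near the receptor reference have no firm order, and the bright end of the scale has little room for differences. The causes were not tested.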
